A study of Mus musculus with 12 samples.

Results

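The difference that the FST transgene makes was read in cochlear organoids as 1 contrast of 6 RNA-seq libraries with the transgene against 6 without it, out of 12 libraries in all. The 6 with it are 3 of FST-overexpressing organoids (TRE-FST-288 tg;R26rtTA*M2/+ mice) and 3 of FST+LIN28B-overexpressing organoids (the same FST allele with Col1a1-TRE-LIN28B tg and R26rtTA*M2/+). The 6 without it are 3 of control organoids (R26rtTA*M2/+ littermates) and 3 of LIN28B-overexpressing organoids (Col1a1-TRE-LIN28B tg;R26rtTA*M2/+). All mice carry the doxycycline-dependent activator from the Rosa26 locus, and all cultures, controls included, received doxycycline at 0.5 μg/ml. Cochlear epithelial cells of mice 5 days old were embedded in Matrigel and expanded for 7 days with EGF, FGF2, the GSK3 inhibitor CHIR99021 and the histone deacetylase inhibitor VPA. The methods give 3 animals per condition and mice of both sexes. Both transgenes are human, are driven by a doxycycline promoter in whichever cells carry the activator, and are quantified in these files against mouse transcripts. P-values measure the spread between these cultures. The question of the contrast is which genes differ with FST once the LIN28B difference, present in 3 libraries of each set of 6, is fitted as a second term. The additive model gives both backgrounds 1 FST difference, and the interaction of FST with LIN28B tests that gene by gene.

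Follistatin is a secreted glycoprotein that binds Activins and holds them away from their receptors, and it also binds some other ligands of the TGF-β superfamily. Activins and TGF-βs act through type II and type I receptor kinases that phosphorylate SMAD2 and SMAD3, while BMPs act through SMAD1, SMAD5 and SMAD9. Both branches induce their own inhibitors, among them the inhibitory SMADs, the SKI family repressors and the membrane proteins Pmepa1 and Ldlrad4. In the developing cochlea, Activin promotes hair cell differentiation and follistatin opposes it.

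Libraries held between 42.7 and 65.3 M estimated counts (M, mega), and their medians were 61.0 M with FST and 58.5 M without it. FST replicate 2 stood apart. It had the fewest counts, the lowest share of ribosomal protein transcripts (3.60%, against 4.54% or more in the other libraries with FST, and 4.42% or more in those without it) and correlated at 0.955 on average with FST replicates 1 and 3 over log2 levels, where these correlated at 0.983 with each other. Levels below are in CPM, the count scaled to the TMM-normalized library size. Y-linked genes were above 50 CPM in total in 3 of the 6 libraries with FST and 4 of the 6 without it. The epithelial label was read against its markers. Epcam lay between 678 and 1024 CPM with FST and between 651 and 972 CPM without it, and Cdh1, Krt8 and Krt18 were at 117 CPM or more in all 12 libraries. Markers of neurons, immune cells and erythroid cells summed to at most 26.3, 6.20 and 6.89 CPM in any library. Schwann cell markers summed to 182 to 305 CPM with FST and 152 to 273 CPM without it, most of it from Sox10 and Mbp. Melanocyte and stria markers summed to 12.7 to 19.2 CPM with FST and 11.9 to 13.6 CPM without it. The 8 markers of periotic mesenchyme summed to 1106 to 2060 CPM with FST and 1536 to 2049 CPM without it, most of it from Dcn and Lum. Prrx1 lay between 13.1 and 56.1 CPM, while Twist1, Pdgfra, Pdgfrb, Tbx18 and Pou3f4 were at 7.65 CPM or below in all 12 libraries.

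Fst was the gene that checks the labels. Fst was at 445, 116 and 326 CPM in FST organoids and 817, 334 and 719 CPM in FST+LIN28B organoids, against 13.1, 7.96 and 7.72 CPM in control and 22.5, 19.9 and 17.3 CPM in LIN28B organoids. The sets did not overlap, and the difference was 31.1-fold (log2 fold change 4.96, SE 0.36, adjusted p = 0.000146). The lowest library with it was FST replicate 2. How many of these counts come from the human transgene and how many from the mouse gene cannot be told apart in gene totals. Lin28b was at 18.9, 22.05 and 16.9 CPM in FST organoids and 256, 187 and 306 CPM in FST+LIN28B organoids, against 22.01, 21.2 and 24.5 CPM in control and 480.1, 473 and 193 CPM in LIN28B organoids. The FST term of Lin28b did not pass the threshold (log2 fold change −0.42, SE 0.21, adjusted p = 0.582).

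In the contrast, 86 of the 18780 genes tested differed at a Benjamini-Hochberg adjusted p under 0.01 (edgeR quasi-likelihood test), which is 0.458% of genes. Of these, 32 were higher (0.17%) and 54 were lower (0.288%), and all 86 are protein coding. At an unadjusted p under 0.05 the balance was the other way, with 1059 genes higher (5.64%) and 735 lower (3.91%), 1794 in all, against 3565 without FST replicate 2. The median log2 fold change was 0.87 over the higher genes and −1.08 over the lower ones, against 0.03 over all genes tested, and 13 of the higher and 29 of the lower genes differed by at least 2-fold. The libraries with FST did not overlap those without it for 18 of the 32 higher genes and 31 of the 54 lower ones, where 0.442% and 0.458% of all genes tested separated in those directions. Within the control background 31 of the 32 higher and all 54 lower genes separated, 3 libraries against 3, where 4.73% and 2.91% of genes tested did so in those directions. Within the LIN28B background all 32 and all 54 separated, where 8.87% and 8.66% did. These genes were chosen by a test on the same libraries, so their separation is a description. Each fit without 1 library kept the sign of all 86, but the count of calls moved. Without FST replicate 2 it was 103 higher and 88 lower. Without FST replicates 1 or 3 it was 13 and 25 higher and 29 and 60 lower, and without FST+LIN28B replicates 1, 2 or 3 it was 7, 22 and 11 higher and 19, 36 and 24 lower. Without control replicates 1, 2 or 3 it was 7, 20 and 16 higher and 20, 38 and 40 lower, and without LIN28B replicates 1, 2 or 3 it was 6, 14 and 10 higher and 23, 36 and 25 lower.

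**Figure D1:**
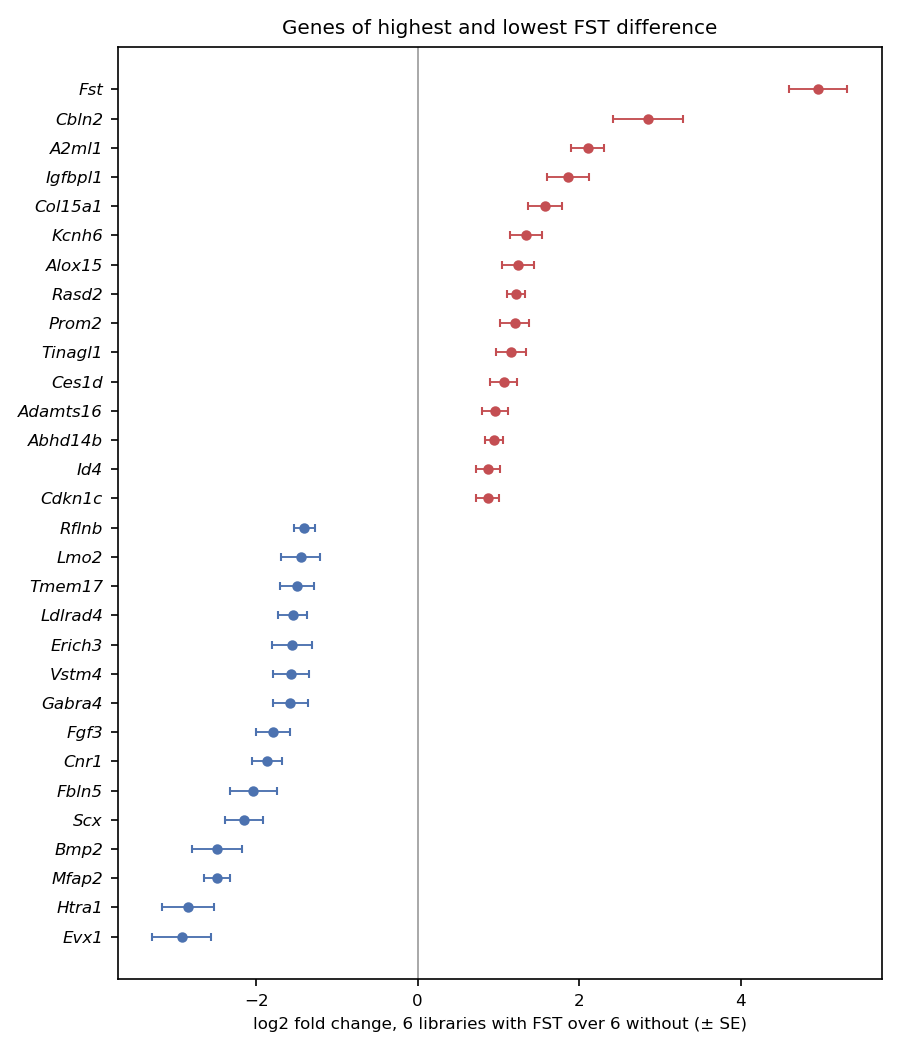
Log2 fold change of the 6 libraries with FST over the 6 without it for 30 genes, the 15 highest and 15 lowest by this value among those called with at least 2 CPM in the higher set. Points are edgeR estimates and bars are ± SE. Fst stands at 4.96, and the lower genes reach −2.92 for Evx1.

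Among SMAD2/3 response genes, Pmepa1, Ldlrad4, Skil and Smad7 were called lower with FST, and each is known as an inhibitor that the pathway induces. Pmepa1, which TGF-β induces and which holds SMAD2 and SMAD3 away from the receptor, had one of the smallest adjusted p of the contrast. Pmepa1 was at 5.60, 7.02 and 6.16 CPM in FST organoids and 5.80, 7.14 and 5.72 CPM in FST+LIN28B organoids, against 14.4, 14.3 and 13.7 CPM in control and 16.6, 19.7 and 17.2 CPM in LIN28B organoids. The highest library with FST was below the lowest without it (log2 fold change −1.35, SE 0.10, adjusted p = 8.13e-05). Ldlrad4, a related membrane inhibitor, was at 2.63, 3.28 and 2.995 CPM in FST and 2.87, 2.84 and 3.64 CPM in FST+LIN28B organoids, against 7.36, 6.22 and 6.46 CPM in control and 8.28, 15.1 and 11.9 CPM in LIN28B organoids, again without overlap (−1.55, SE 0.18, adjusted p = 0.00130). Skil encodes the SMAD corepressor SnoN. Skil was at 41.3, 37.3 and 47.8 CPM in FST organoids and 54.6, 47.8 and 75.4 CPM in FST+LIN28B organoids, against 67.2, 68.1 and 70.4 CPM in control and 126, 139 and 126 CPM in LIN28B organoids. Its sets of 6 overlapped, because FST+LIN28B replicate 3 was above all 3 control libraries, while within each background the libraries separated (−0.92, SE 0.12, adjusted p = 0.00220). Smad7 encodes the inhibitory SMAD that turns over type I receptors. Smad7 was at 13.8, 13.04 and 13.01 CPM in FST organoids and 13.1, 11.5 and 13.8 CPM in FST+LIN28B organoids, against 22.6, 20.2 and 16.5 CPM in control and 30.8, 29.5 and 31.3 CPM in LIN28B organoids. It fell with FST without overlap (−0.91, SE 0.13, adjusted p = 0.00357), although its adjusted p was above 0.01 without control replicate 1 (0.0127), LIN28B replicate 1 (0.0106), FST+LIN28B replicate 1 (0.0150) or FST+LIN28B replicate 3 (0.0122). In bulk RNA, fewer cells of a type and less RNA per cell cannot be told apart, here and below.

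These 4 were the called members of a list of SMAD2/3 response genes, of which 28 of 31 were tested. None was called higher. The median of the 28 was −0.29, against 0.03 over all genes tested, and 22 of them lay below 0. In FST against control alone it was −0.18 over 27 genes, with 0 called in a fit that called 2 genes in all. In FST+LIN28B against LIN28B alone it was −0.35 over the 28, with 5 called lower. Besides the 4, a further 6 had an unadjusted p under 0.05 in the joint fit. Over all genes tested, 3.91% were lower and 5.64% higher at that level. All 6 were lower, and none of the 28 was higher at that level. Among them Timp1, an inhibitor of matrix metalloproteases, was at −1.05, Mmp2 at −0.80 and Ccn2 at −0.78. The SMAD1/5/9 response genes had no common direction: of 19 tested, Id4 was called higher and Smad7, which is on both lists, lower, and the median was −0.02. Id1, a direct BMP target, was at 19.2, 52.9 and 65.4 CPM with FST, against 23.9, 48.5 and 82 CPM without it (lowest, median and highest of 6), with a log2 fold change of 0.03 and an SE of 0.30. Id4 encodes another inhibitor of bHLH factors. It was at 28.6, 29.5 and 34.5 CPM in FST and 33.6, 44.2 and 32.8 CPM in FST+LIN28B organoids, against 18.4, 19.1 and 26.1 CPM in control and 16.5, 13.8 and 17.7 CPM in LIN28B organoids (0.87, SE 0.15, adjusted p = 0.00983). For Id4 its adjusted p was above 0.01 in 10 of the 12 fits that left out 1 library, and 0.0430 at most, without LIN28B replicate 1.

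**Figure D2:**
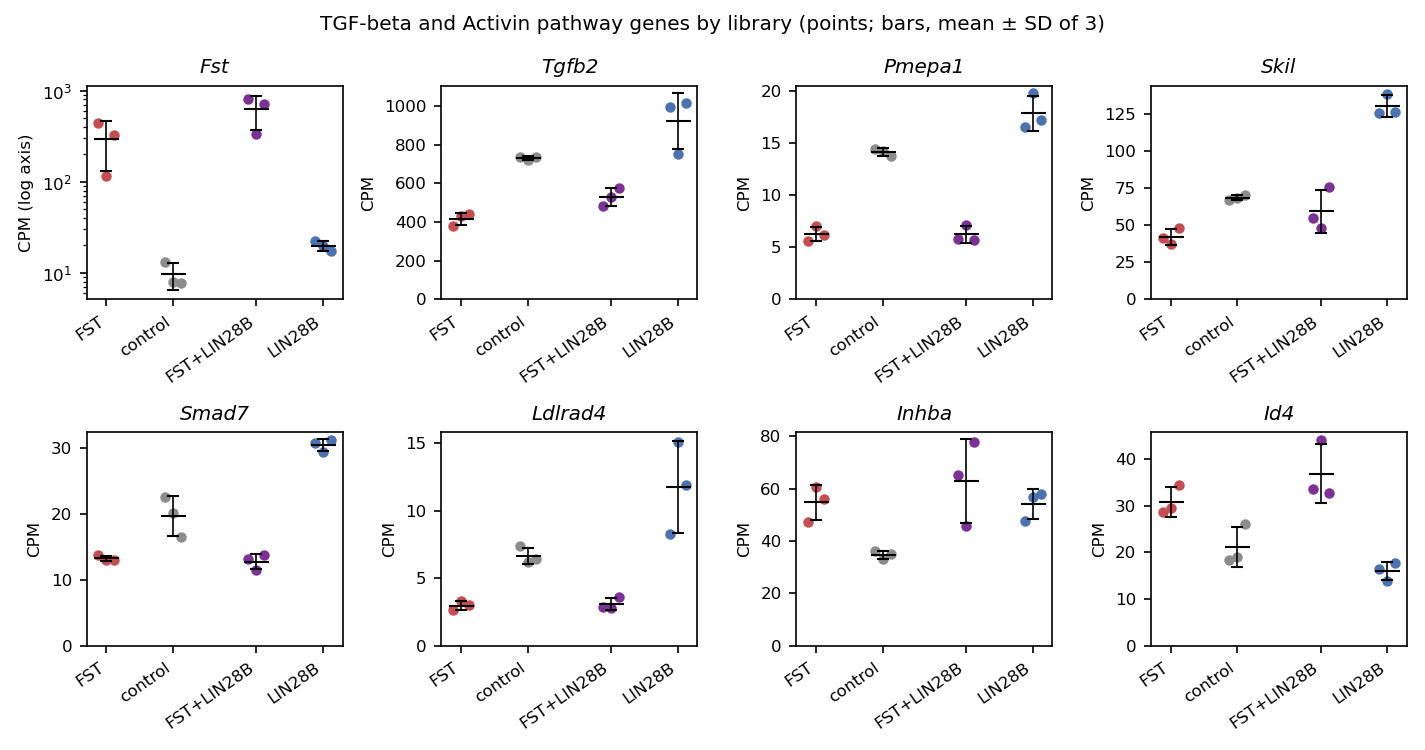
TMM-normalized CPM of Fst (log axis) and 7 genes of the TGF-β and Activin pathway (linear axes from 0) in FST, control, FST+LIN28B and LIN28B organoids. Points are libraries and bars are the mean ± SD of 3. Tgfb2, Pmepa1, Smad7 and Ldlrad4 lie lower in all 6 libraries with FST than in all 6 without it, Id4 lies higher, and Skil and Inhba overlap.

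Of the ligands, Tgfb2 and Bmp2 were called, both lower. Tgfb2 was at 379, 428 and 440.1 CPM in FST organoids and 484, 528 and 575 CPM in FST+LIN28B organoids, against 736, 718 and 735 CPM in control and 996, 753 and 1016 CPM in LIN28B organoids. No library with FST reached the lowest without it (log2 fold change −0.81, SE 0.09, adjusted p = 0.000601), and the difference was −0.83 over control and −0.81 over LIN28B. Its unadjusted interaction p, by edgeR, was 0.950. Bmp2 was at 0.255, 0.238 and 0.303 CPM in FST and 0.392, 0.662 and 0.348 CPM in FST+LIN28B organoids, against 0.755, 1.02 and 0.977 CPM in control and 2.46, 4.24 and 5.21 CPM in LIN28B organoids (−2.48, SE 0.31, adjusted p = 0.00182). Its sets did not overlap, but it is a low-count gene whose level without FST was mostly that of the LIN28B libraries. Inhba encodes the subunit of Activin A, the main ligand of follistatin. It was at 47.5, 60.7 and 56.1 CPM in FST and 65.4, 45.8 and 77.9 CPM in FST+LIN28B organoids, against 36.2, 33.1 and 35.1 CPM in control and 47.6, 56.99 and 57.9 CPM in LIN28B organoids. All 3 FST libraries were above all 3 control libraries while those of the LIN28B background overlapped, and the term did not pass the threshold (0.44, SE 0.13, adjusted p = 0.150). Inhbb, the subunit of Activin B, was at 1.24 CPM or below in all 12 libraries (−1.11, SE 0.33, adjusted p = 0.161). Tgfb1, Tgfb3 and Bmp4 had log2 fold changes of −0.17, −0.25 and 0.14 and adjusted p of 0.621 or more. In all, 1 of 13 Activin, TGF-β and GDF ligands tested and 1 of 12 BMP ligands were called, against 0.458% of all genes tested.

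The receptors and SMADs that carry the signal did not pass the threshold. Of 23 tested genes of this class, Smad7 was the 1 called, and the list median was −0.02. The log2 fold changes (SE) were 0.15 (0.10) for Acvr2a and 0.09 (0.12) for Acvr2b, the type II Activin receptors, and 0.01 (0.08) for Acvr1b, their type I partner. They were 0.20 (0.08) for Tgfbr1 and −0.03 (0.08) for Tgfbr2, the TGF-β receptors. Smad2 was at 123, 127 and 139 CPM with FST, against 123, 128 and 134 CPM without it and Smad3 at 60.9, 84.5 and 102 CPM with FST, against 68.7, 86.5 and 112 CPM without it, each as lowest, median and highest of 6. These are transcript levels and do not measure the phosphorylated proteins. Among 24 tested secreted antagonists, Fst itself was called higher and Htra1 lower.

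Htra1 encodes a secreted serine protease that degrades matrix and can bind TGF-β family ligands. Htra1 was at 0.894, 0.907 and 1.62 CPM in FST organoids and 0.971, 1.27 and 1.64 CPM in FST+LIN28B organoids, against 5.72, 3.88 and 3.88 CPM in control and 17.97, 16.03 and 15.9 CPM in LIN28B organoids. The highest library with FST was at 1.64 CPM and the lowest without it at 3.88 CPM (log2 fold change −2.84, SE 0.32, adjusted p = 0.00107). The difference was larger over LIN28B than over control (−2.0 over control and −3.69 over LIN28B), with an unadjusted interaction p of 0.000701 that did not pass adjustment over all genes in edgeR and did in DESeq2 (adjusted p = 0.00555).

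Microfibril and elastic fiber genes held the gene of smallest adjusted p in the contrast. Mfap2 encodes a microfibril-associated glycoprotein that binds fibrillin and, in vitro, TGF-β and BMP ligands. Mfap2 was at 5.41, 4.56 and 6.02 CPM in FST organoids and 7.96, 4.57 and 5.66 CPM in FST+LIN28B organoids, against 25.1, 25.8 and 25.2 CPM in control and 34.2, 35.03 and 50.6 CPM in LIN28B organoids. The highest library with FST was at 7.96 CPM and the lowest without it at 25.1 CPM (log2 fold change −2.48, SE 0.16, adjusted p = 1.62e-05), and Mfap2 kept its call in every alternative tried, the 6-library fits of each background included. Fbn1 encodes fibrillin-1, the backbone of the microfibril, and was at 19.5, 18.9 and 24.4 CPM in FST and 23.5, 18.2 and 18.2 CPM in FST+LIN28B organoids, against 41.2, 29.1 and 30.1 CPM in control and 48.1, 57.2 and 44.01 CPM in LIN28B organoids (−1.0, SE 0.14, adjusted p = 0.00400). Fbln5 encodes fibulin-5, which organizes elastic fibers at the cell surface, and was at 0.314, 0.630 and 0.990 CPM with FST, against 1.74, 2.60 and 3.47 CPM without it as lowest, median and highest (−2.03, SE 0.29, adjusted p = 0.00400). Both fell without overlap, but not in all fits. For Fbn1 its adjusted p was above 0.01 in 7 of the 12 fits that left out 1 library, and 0.0162 at most, without FST+LIN28B replicate 1. For Fbln5 its adjusted p was above 0.01 without control replicate 1 (0.0127), LIN28B replicate 1 (0.0116), LIN28B replicate 3 (0.0115), FST+LIN28B replicate 1 (0.0188) or FST+LIN28B replicate 2 (0.0127).

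Of the 23 tested genes of this list, 3 were called, all lower, and the median was −0.21. A further 7 were lower at an unadjusted p under 0.05, among them Mfap4 at −1.96, Adamtsl2 at −1.56 and the cross-linking enzyme Lox at −0.94, and none was higher. Over all genes tested, 0.288% were called lower, 3.91% were lower at that level and the median was 0.03. The list median was −0.07 in FST against control alone and −0.18 in FST+LIN28B against LIN28B alone. The collagens split. Of 41 tested chains, Col2a1 and Col9a3, chains of cartilage-type fibrils that the tectorial membrane also holds, were called lower, and Col15a1, a basement membrane collagen, higher, with a median of 0.00 over the list. Col2a1 was at 446, 306 and 325 CPM in FST organoids and 313, 336 and 319.7 CPM in FST+LIN28B organoids, against 1023, 1404 and 1058 CPM in control and 587, 435 and 642 CPM in LIN28B organoids. Each background separated, but LIN28B replicate 2 was below FST replicate 1, so the sets of 6 overlapped (log2 fold change −1.24, SE 0.18, adjusted p = 0.00452). For Col2a1 its adjusted p was above 0.01 in 8 of the 12 fits that left out 1 library, and 0.0161 at most, without LIN28B replicate 3. Col9a3 was at 70.3, 76.3 and 139 CPM with FST, against 191, 209 and 227 CPM without it (lowest, median and highest), without overlap (−1.23, SE 0.13, adjusted p = 0.000695). Col15a1 was at 2.71, 3.34 and 5.25 CPM with FST, against 0.664, 1.24 and 1.48 CPM without it, also without overlap (1.58, SE 0.21, adjusted p = 0.00351), and its adjusted p was above 0.01 without control replicate 1 (0.0127), LIN28B replicate 1 (0.0105) or FST+LIN28B replicate 1 (0.0127). Sparc, a collagen-binding glycoprotein singled out after its values were seen, was at 551, 622 and 966 CPM with FST, against 1062, 1116 and 1243 CPM without it (−0.74, SE 0.12, adjusted p = 0.00842).

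**Figure D3:**
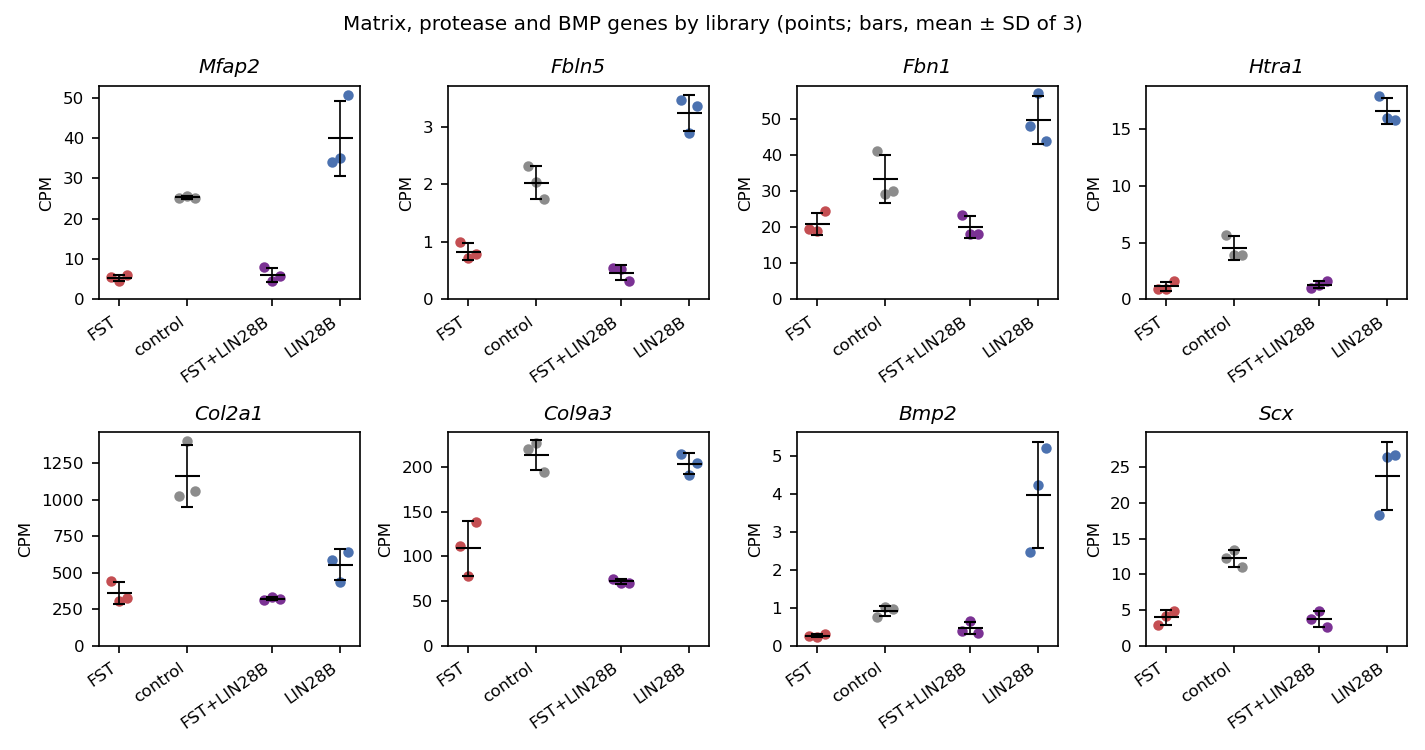
TMM-normalized CPM of 8 genes called lower with FST, in FST, control, FST+LIN28B and LIN28B organoids. Points are libraries, bars are the mean ± SD of 3, and axes are linear from 0. Mfap2, Htra1, Bmp2, Scx, Fbln5, Fbn1 and Col9a3 separate completely, while Col2a1 in LIN28B organoids lies between its control level and its level with FST.

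Scx encodes scleraxis, a bHLH factor of tendon and skeletal progenitors. Scx was at 2.89, 4.15 and 4.93 CPM in FST organoids and 3.70, 4.90 and 2.63 CPM in FST+LIN28B organoids, against 12.3, 13.4 and 11.1 CPM in control and 18.3, 26.5 and 26.7 CPM in LIN28B organoids. The sets did not overlap (log2 fold change −2.15, SE 0.23, adjusted p = 0.000695). It was the 1 gene called among 20 tested mesenchymal genes, with a median of −0.14 over the list. Of the 20, 6 were lower and 2 higher at an unadjusted p under 0.05. Of the 8 markers of periotic mesenchyme, edgeR called none, 5 lay below 0 and 3 above, and the median was −0.17. Prrx1 at −0.88 (SE 0.25), Twist1 at −0.57 (SE 0.21) and Dcn at −0.37 (SE 0.15) had an unadjusted p under 0.05. Pdgfrb was at 0.32 (SE 0.56), Tbx18 at 0.17 (SE 0.30) and Pou3f4 at 0.08 (SE 0.40). Prrx1 was called lower with DESeq2 (adjusted p = 0.00755), with voom library weights (0.00190) and without FST replicate 2 (0.00758). The list median was −0.33 without FST replicate 2 and −0.10 without FST+LIN28B replicate 2. It was −0.05 in FST against control alone and −0.39 in FST+LIN28B against LIN28B alone. Their summed level had a median of 1450 CPM with FST and 1726 CPM without it, and the means by condition were 1634 CPM in FST and 1335 CPM in FST+LIN28B, against 1697 CPM in control and 1816 CPM in LIN28B organoids. What part cells of this type, if present, have in the lower level of matrix genes was not tested. Matrix proteases and their inhibitors had Htra1 called lower and Adamts16 higher of 29 tested, with a median of −0.24. At an unadjusted p under 0.05, 10 were lower and 2 higher, where 3.91% of all genes tested were lower and 5.64% higher. The list median was −0.02 in FST against control alone and −0.28 in FST+LIN28B against LIN28B alone.

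Promoter windows were read for the genes called, to show the sequence upstream of members that move together. RefSeq windows (GRCm38.p6, 250 bases before and 50 after a start) were matched for 34 of the 54 lower genes (44 windows) and 17 of the 32 higher genes (23 windows). Searched on both strands, CAGACA, which holds the SMAD binding box, was in 9 of the 44 windows of lower genes (20.5%) and 1 of the 23 of higher genes (4.35%), against 16.9% of the windows of genes tested and 21.0% of all windows. GGCGCC, a GC-rich sequence SMADs can also bind and which reads the same on both strands, was in 13 of 44 (29.5%) and 7 of 23 (30.4%), against 18.9% and 11.9%. The windows of 4 lower genes with CAGACA are shown as examples, those of Tgfb2, Mfap2, Fbln5 and Evx1. They lie at chr1:186705940-186706239 (minus strand), chr4:141010174-141010473 (plus), chr12:101818435-101818734 (minus) and chr6:52313248-52313547 (plus) and are written 5′ to 3′ on the gene's strand, with capitals marking either motif on either strand.
Tgfb2: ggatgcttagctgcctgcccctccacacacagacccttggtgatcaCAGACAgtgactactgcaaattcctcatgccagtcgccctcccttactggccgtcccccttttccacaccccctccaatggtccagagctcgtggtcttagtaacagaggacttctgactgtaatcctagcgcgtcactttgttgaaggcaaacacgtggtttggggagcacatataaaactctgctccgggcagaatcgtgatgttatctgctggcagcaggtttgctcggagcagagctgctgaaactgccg
Mfap2: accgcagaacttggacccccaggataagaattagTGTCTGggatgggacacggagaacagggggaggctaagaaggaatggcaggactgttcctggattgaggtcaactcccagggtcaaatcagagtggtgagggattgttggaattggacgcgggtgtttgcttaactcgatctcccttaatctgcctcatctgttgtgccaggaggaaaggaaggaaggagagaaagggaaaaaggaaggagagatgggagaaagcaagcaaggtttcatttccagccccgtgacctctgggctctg
Fbln5: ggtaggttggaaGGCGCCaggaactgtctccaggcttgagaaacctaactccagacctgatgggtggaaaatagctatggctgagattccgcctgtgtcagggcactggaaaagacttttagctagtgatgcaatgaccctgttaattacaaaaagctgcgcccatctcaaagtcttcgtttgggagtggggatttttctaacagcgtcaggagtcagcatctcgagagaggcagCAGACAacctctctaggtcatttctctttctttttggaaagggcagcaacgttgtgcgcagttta
Evx1: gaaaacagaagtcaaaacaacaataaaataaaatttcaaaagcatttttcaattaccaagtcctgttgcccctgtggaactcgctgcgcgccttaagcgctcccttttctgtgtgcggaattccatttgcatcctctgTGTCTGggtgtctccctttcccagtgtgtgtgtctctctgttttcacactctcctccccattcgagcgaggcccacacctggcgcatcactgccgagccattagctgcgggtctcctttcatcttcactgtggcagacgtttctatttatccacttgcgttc
In Tgfb2 and Fbln5 the box reads CAGACA, and in Mfap2 and Evx1 its reverse complement TGTCTG. The Fbln5 window shown also holds GGCGCC. Mfap2 and Fbln5 each have another window that holds no CAGACA. The window of Sparc, also described above, holds CAGACA 2 times and is not shown. The share of windows with CAGACA among lower genes lay between the share among genes tested and that among all windows. These matches are a description of the letters only.

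The lists of Wnt targets, FGF genes and Notch genes each held 1 gene called by edgeR, all lower. Lgr5, the R-spondin receptor that marks progenitor-competent supporting cells of the neonatal cochlea and is a Wnt target, was at 73.98, 108 and 63.9 CPM in FST and 77, 58.2 and 93.1 CPM in FST+LIN28B organoids, against 157, 135 and 144 CPM in control and 162, 182 and 166 CPM in LIN28B organoids. It fell without overlap (log2 fold change −0.99, SE 0.14, adjusted p = 0.00357), and its adjusted p was above 0.01 without control replicate 1 (0.0127), LIN28B replicate 1 (0.0116), LIN28B replicate 3 (0.0114) or FST+LIN28B replicate 1 (0.0134). Of 22 tested Wnt targets, 11 were lower and 2 higher at an unadjusted p under 0.05, with a median of −0.19. Over all genes tested, 3.91% were lower and 5.64% higher, with a median of 0.03. The Wnt target median was −0.08 in FST against control alone (20 tested) and −0.36 in FST+LIN28B against LIN28B alone (22 tested). DESeq2 called Lgr5, Bambi and Fgf4 lower and Sp8 higher on this list. Outside the list, Dact3 and Lrp4, modulators of Wnt signaling named after their values were seen, were called lower (−0.93 and −0.50). Axin2, the general Wnt target, was at 0.05, and Dkk4, Fgf4 and Lgr6 were at −1.77, −1.22 and −0.88. Fgf3, a ligand needed for inner ear induction and growth, was at 3.38, 4.10 and 6.93 CPM in FST and 14.4, 12.9 and 8.68 CPM in FST+LIN28B organoids, against 23.4, 14.6 and 11.01 CPM in control and 47.2, 38.5 and 40.4 CPM in LIN28B organoids (−1.79, SE 0.21, adjusted p = 0.00177). It overlapped over the sets of 6 and separated within each background. Nrarp, a Notch target that limits Notch signaling, was at 16.4, 24.9 and 28.3 CPM with FST, against 27.05, 37.8 and 41.3 CPM without it (−0.56, SE 0.09, adjusted p = 0.00830), and its adjusted p was above 0.01 in 11 of the 12 fits that left out 1 library, and 0.0359 at most, without FST+LIN28B replicate 1. The lists of 31 FGF genes and 21 Notch genes had medians of 0.04 and 0.10.

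Several of the genes with the largest falls also had a large LIN28B term in the same fit. Evx1 encodes a homeobox factor. Evx1 was at 0.0798, 0.0216 and 0.151 CPM in FST organoids and 1.57, 0.529 and 2.02 CPM in FST+LIN28B organoids, against 0.755, 0.427 and 0.431 CPM in control and 12.8, 12.4 and 9.58 CPM in LIN28B organoids. Within each background the libraries separated, but those of FST+LIN28B lay within or above the range of control (log2 fold change −2.92, SE 0.36, adjusted p = 0.00178), and its LIN28B term was 4.26. Gabra4, a GABA-A receptor subunit, Lmo2, a LIM-only cofactor, and Rflnb, which encodes the filamin-binding protein refilin B, had FST terms of −1.58, −1.45 and −1.40 beside LIN28B terms of 2.22, 1.11 and 1.16. Fgf15 and Sox3, named after their values were seen, had −1.39 and −1.32 beside 2.69 and 2.10. Cnr1, which encodes the cannabinoid receptor CB1, fell with FST (log2 fold change −1.86, SE 0.18, adjusted p = 0.000325) at a LIN28B term of 0.15, with 3.09, 4.76 and 5.33 CPM with FST, against 11.6, 17.9 and 22.8 CPM without it. The FST and LIN28B terms come from the same 12 libraries, so they are given side by side with no test of their relation. Vstm4, Erich3 and the ciliary gene Tmem17, also named by the rule, were at −1.57, −1.56 and −1.49.

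Besides Fst, Cbln2 rose the most. Its product is a secreted organizer of synapses. Cbln2 was at 11.4, 5.14 and 5.67 CPM in FST organoids and 78.2, 20.7 and 114 CPM in FST+LIN28B organoids, against 0.922, 0.705 and 0.530 CPM in control and 18.2, 10.8 and 9.87 CPM in LIN28B organoids. The sets of 6 overlapped, while each background separated (log2 fold change 2.85, SE 0.43, adjusted p = 0.00944). The call was lost in most fits without 1 library: its adjusted p was above 0.01 in 11 of the 12 fits that left out 1 library, and 0.0328 at most, without LIN28B replicate 3. The list of 22 tested synapse organizers and neuronal genes had 1 called in each direction, Cbln2 and Clstn2 (calsyntenin-2, −1.18, SE 0.19, adjusted p = 0.00796), and a median of −0.11. For Clstn2 its adjusted p was above 0.01 in 10 of the 12 fits that left out 1 library, and 0.0258 at most, without FST+LIN28B replicate 1. A2ml1, an alpha-2-macroglobulin-like protease inhibitor, did not overlap: it was at 9.85, 12.4 and 6.14 CPM in FST organoids and 4.34, 6.14 and 3.62 CPM in FST+LIN28B organoids, against 1.88, 2.45 and 2.73 CPM in control and 1.16, 0.797 and 1.09 CPM in LIN28B organoids (log2 fold change 2.11, SE 0.20, adjusted p = 0.000307). Igfbpl1, which encodes a protein with an insulin-like growth factor binding domain, was at 21.7, 30.4 and 39.9 CPM with FST, against 4.62, 8.93 and 12.7 CPM without it (1.86, SE 0.26, adjusted p = 0.00400), with a larger difference in the LIN28B background (1.21 over control and 2.51 over LIN28B) and an unadjusted interaction p of 0.00199 that did not pass adjustment. For Igfbpl1 its adjusted p was above 0.01 without control replicate 1 (0.0144), FST replicate 1 (0.0154), LIN28B replicate 1 (0.0170), LIN28B replicate 3 (0.0173) or FST+LIN28B replicate 1 (0.0135).

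Rasd2, which encodes the small GTPase Rhes, rose without overlap. Rasd2 was at 22.6, 15.8 and 17.1 CPM in FST organoids and 21.9, 20.3 and 19.97 CPM in FST+LIN28B organoids, against 7.70, 8.76 and 9.89 CPM in control and 8.32, 8.72 and 7.06 CPM in LIN28B organoids. The difference was 1.22 (SE 0.11, adjusted p = 0.000207) and stood at 1.06 over control and 1.36 over LIN28B. Its unadjusted interaction p was 0.202. It was the 1 called gene of a list of 31 tested hair cell genes, of which 28 lay above 0, with a median of 0.31, against 11112 of 18780 above 0 and a median of 0.03 over all genes tested. The hair cell median was 0.17 without FST replicate 2, 0.11 over the 13 genes left by a stricter filter on low counts, and 0.08 with limma on log2(TPM + 1). It was 0.23 over 26 genes in FST against control alone and 0.22 over 30 in FST+LIN28B against LIN28B alone. The list holds 41 genes, and those too low to test included Slc26a5, Ocm, Tmc1 and Pvalb. A further 6 hair cell genes were higher at an unadjusted p under 0.05 and none lower, where 5.64% of all genes tested were higher and 3.91% lower. The 6 included the hair cell fate factors Atoh1 at 1.25, Pou4f3 at 1.23 and Lhx3 at 2.22, and the splicing factor Rbm24 at 2.09. The paper reports Atoh1 and Pou4f3 as raised in FST+LIN28B organoids and barely detected in those with FST or LIN28B alone. A joint FST term cannot show in which background such a gene rose. None of the 6 passed adjustment in edgeR. Rbm24 did with DESeq2 (adjusted p = 0.00597) and with voom library weights (0.00655), and Pcdh15, a component of hair bundle tip links, at 1.14, did with DESeq2 (0.000149). Supporting cell genes had a median of 0.14 over 35 tested, with 10 higher and 3 lower at an unadjusted p under 0.05, and Lgr5 called lower.

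Other genes were called higher. Abhd14b, an alpha/beta hydrolase, was at 24.2, 29.9 and 46.6 CPM with FST, against 11.7, 16.2 and 24.7 CPM without it (0.95, SE 0.11, adjusted p = 0.00106), separated within each background but not over the sets of 6. Alox15, a lipoxygenase, Ces1d, a carboxylesterase, and Faah, a hydrolase of fatty acid amides named after its values were seen, were at 1.24, 1.07 and 0.60. Kcnh6, a potassium channel subunit of the erg family, Prom2, prominin 2, and Tinagl1, a basement membrane protein, were at 1.34, 1.20 and 1.15. Cdkn1c encodes the CDK inhibitor p57. Cdkn1c was at 47.3, 24.3 and 40.6 CPM in FST organoids and 133, 125 and 133 CPM in FST+LIN28B organoids, against 23.5, 25.5 and 20.1 CPM in control and 74.7, 61.05 and 55.4 CPM in LIN28B organoids. FST replicate 2 lay within the control range, so the FST and control libraries overlapped, and the term of 0.87 (SE 0.14, adjusted p = 0.00992) stood close to the threshold. Of 44 cell cycle genes, 33 let-7 targets and 42 ribosomal protein genes tested, none was called by edgeR. At an unadjusted p under 0.05, 3, 8 and 0 of them were higher and 0 lower. Over all genes tested, 5.64% were higher and 3.91% lower at that level, so the let-7 targets leaned higher. Their median was 0.10, with 0.11 in FST against control alone and 0.01 in FST+LIN28B against LIN28B alone. The cell cycle and ribosomal protein medians were 0.02 and −0.002.

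**Figure D4:**
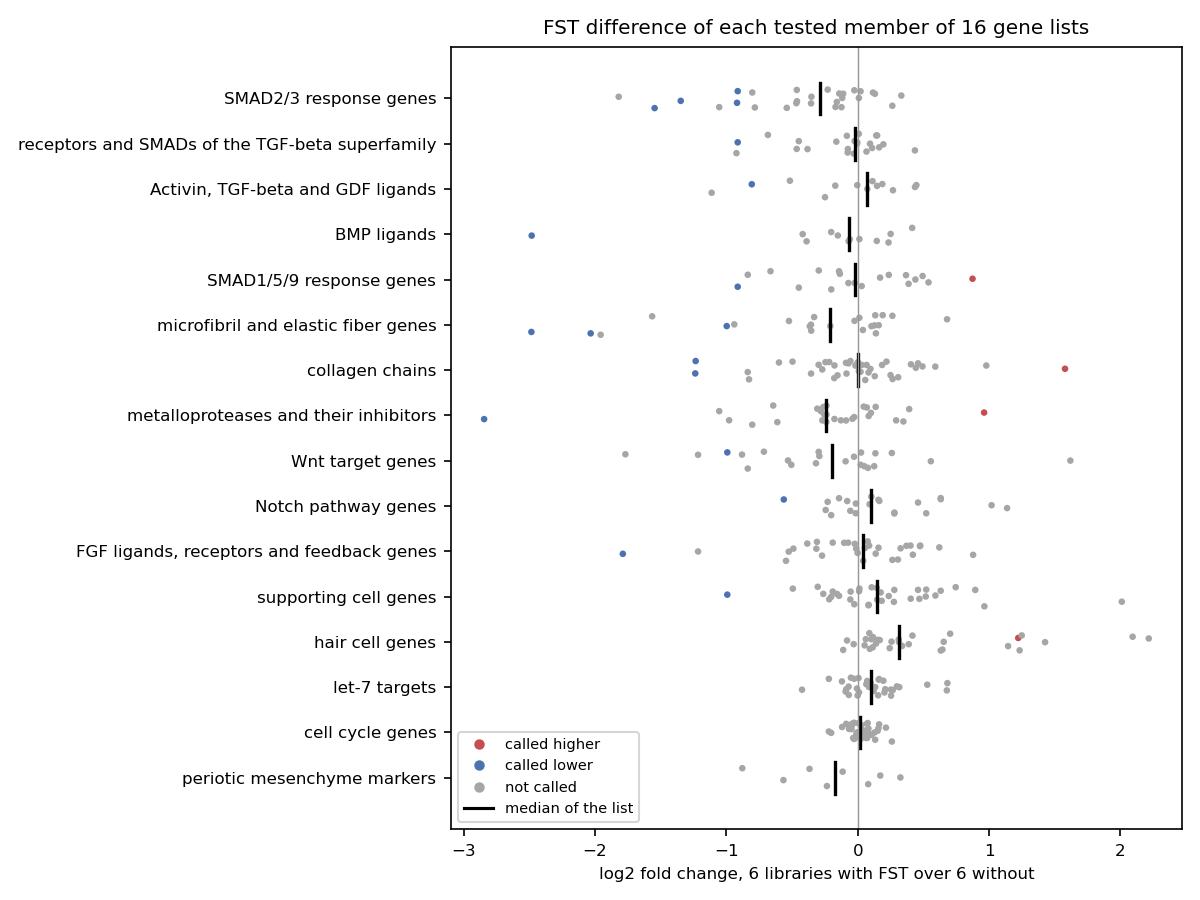
Log2 fold change of the 6 libraries with FST over the 6 without it for each tested member of 16 gene lists. Each point is a gene, colored by its call at an adjusted p under 0.01, and the black line is the list median. SMAD2/3 response genes have 4 called lower of 28 and a median of −0.29, and cell cycle genes lie close to 0 with none called.

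The same difference was then read in each background alone. In FST against control, 2 genes were called of 18088 tested, both lower (0.0111%), with 576 at an unadjusted p under 0.05. They were Mfap2 (−2.27) and Gm5898 (−4.58), a predicted gene named after its values were seen that was not called in the joint fit (−2.48, adjusted p = 0.666). In FST+LIN28B against LIN28B, 35 were called higher (0.195%) and 45 lower (0.251%) of 17945, 0.446% in all. These 2 fits share no library. Of 170 genes at an unadjusted p under 0.01 in FST against control, 155 had the same sign in FST+LIN28B against LIN28B (91.2%). Their median absolute log2 fold change was 0.75 in the first, and the median of the signed value was 0.78 in the second. Without FST replicate 2 the genes so chosen numbered 1339, with 75.5% of the same sign, and without FST replicate 1, 109, with 82.6%. Without control replicates 1, 2 or 3 they numbered 90, 93 and 95, with 87.8%, 88.2% and 87.4%. Of 930 genes chosen that way in FST+LIN28B against LIN28B, 784 had the same sign in FST against control (84.3%). Their median was 0.72 as an absolute value where chosen and 0.22 as a signed value in FST against control. An absolute and a signed median do not compare sizes. They numbered 598 without LIN28B replicate 1 and 617 without FST+LIN28B replicate 1, with 87.0% and 82.7% of the same sign. Over the 17575 genes in both fits the share was 56.2%. All 86 genes called in the joint fit had the same sign in both backgrounds by mean log2 CPM, which a joint fit favors. The median size of the lower genes was −1.23 over LIN28B and −0.94 over control, larger over LIN28B in 42, and that of the higher genes was 1.02 over LIN28B and 0.70 over control, larger in 28 of 32.

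Whether the FST difference depends on LIN28B was tested as an interaction. It passed the threshold for 1 gene, AC117239.2 (0.00532%), and 672 genes (3.58%) had an unadjusted p under 0.05. Without FST replicate 2 that count was 2068, with the same number of 1 called. AC117239.2 was at 0, 0.216 and 0.0673 CPM in FST and 22.3, 25.4 and 22.7 CPM in FST+LIN28B organoids, against 40.2, 24.4 and 23.9 CPM in control and 28.3, 24.3 and 28.1 CPM in LIN28B organoids. Its 3 FST libraries stood apart from all 9 others. None of the 86 called genes passed the interaction test in edgeR, the lowest adjusted p being 0.387 among the lower genes and 0.634 among the higher ones, and 16 of the 54 and 6 of the 32 had an unadjusted p under 0.05. With DESeq2, Htra1 passed it (−1.71, adjusted p = 0.00555). The larger median size over LIN28B is thus a description of the 2 fits.

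**Figure D5:**
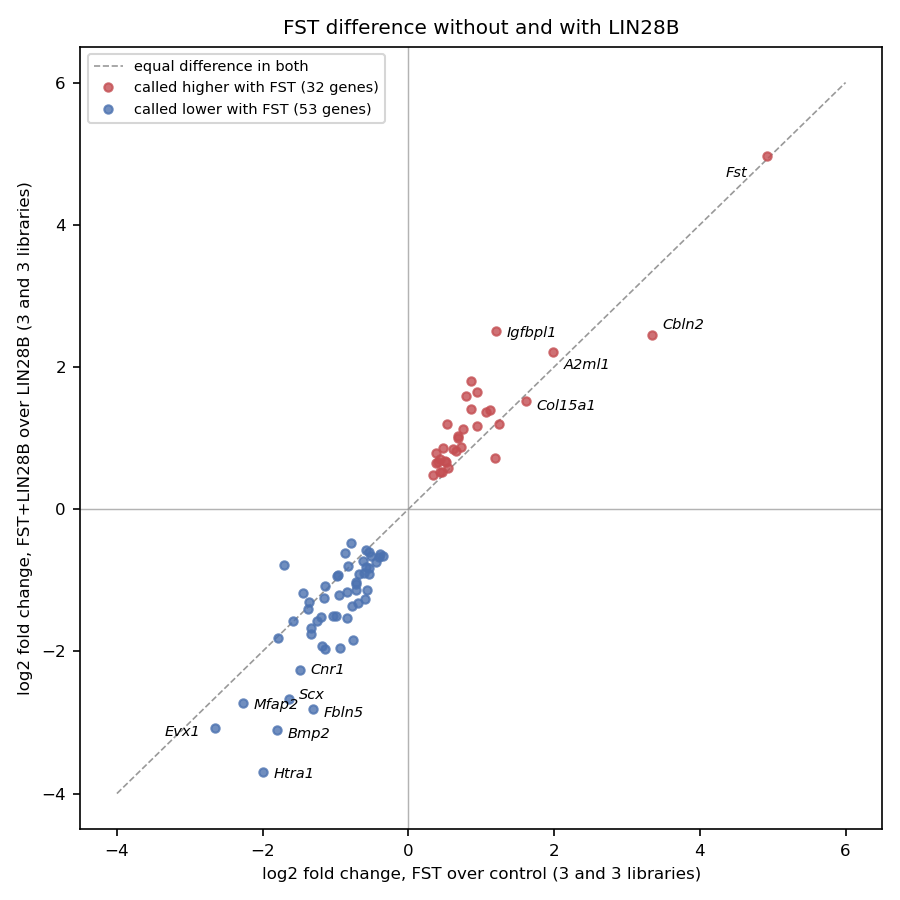
Log2 fold change in FST over control organoids (horizontal) and in FST+LIN28B over LIN28B organoids (vertical), each from its own fit of 6 libraries, for 85 of the 86 genes called in the joint fit (1 of the lower genes was not tested in the first). The dashed line marks equal differences. Most genes lie farther from 0 on the vertical axis, with Htra1 at −3.69 against −2.0, and Fst lies on the line.

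Calls were then read by how firmly they held. Of the 40 genes called among those named by the rule, 17 stayed under an adjusted p of 0.01 in each of the 12 fits that left out 1 library, namely Fst, A2ml1, Rasd2 and Abhd14b among the higher genes and Mfap2, Pmepa1, Ldlrad4, Skil, Tgfb2, Bmp2, Htra1, Scx, Col9a3, Cnr1, Fgf3, Rflnb and Evx1 among the lower. The other 23 reached an adjusted p of at most 0.0430 in such a fit, that of Id4 without LIN28B replicate 1. None of the 40 changed sign in any of the alternatives.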

How the data were processed

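Total RNA of 12 organoid cultures was sequenced as stranded libraries. The authors' deposited values are estimated counts per transcript from kallisto 0.46.1 against Ensembl v96 mouse transcripts (GRCm38). Here 116816 of 118489 transcripts were matched to GENCODE M21 genes (the rest held 0.543% to 0.598% of counts), summed per gene and rounded. TPM were computed from counts and effective lengths. Groups came from sample titles.

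Genes kept by filterByExpr (min.count 10, min.total.count 15) were tested with edgeR 4.0.16 (R 4.3.3, quasi-likelihood, robust, TMM) on LIN28B and FST as additive terms (BCV 0.263), with Benjamini-Hochberg adjustment and calls under 0.01. SE is the unshrunk log2 fold change over the square root of F. Alternatives used DESeq2 1.42.0 and limma 3.58.1. The edgeR main and interaction fits, DESeq2 and limma were tried on simulated counts with known changes and the same dispersion for all genes. The other steps were not. Deeper libraries narrow counting error only.

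Named genes were Fst, Lin28b, pathway genes, the 15 highest and 15 lowest called genes of at least 2 CPM (same sign in both backgrounds, predicted genes left out), up to 5 called members per list, and interaction genes, 55 in all. A further gene of the rule is not reported here. Members, the rule and the 40 lists were chosen with earlier results of these data known. Uncalled list members were named after their values were seen. Correlations between same-numbered libraries lay between −0.33 and 0.18 (18 pairs), and no block was used. They cannot show whether litters were shared, and with the block the calls were 7 higher and 19 lower.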

Additional observations from a re-analysis of the deposited data

Results flagged for a closer look

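Of 118 sets of 6 libraries looked at (55 named genes and 4 library measures, with and without FST), 10 held a library past Dixon's critical value. That value compares the gap to the nearest neighbor with the range. Chance gives about 1 in 20 for 6 draws from the same normal population. Each set here mixes libraries with and without LIN28B, and the sets share libraries, so that rate does not apply to them. Among the libraries with FST, FST replicate 2 was high for Col15a1 (5.25 CPM, next 3.58 CPM) and for the share of counts not matched to a gene (0.598%, next 0.556%), and low for ribosomal protein transcripts (3.60%, next 4.54%). FST+LIN28B replicate 2 was high for Smad2 (139 CPM, next 128 CPM) and Bmp2 (0.662 CPM, next 0.392 CPM) and low for Smad7 (11.5 CPM, next 13 CPM). FST replicate 1 was high for Col2a1 (446 CPM, next 336 CPM) and FST+LIN28B replicate 3 for Acvr2a (93.9 CPM, next 67.7 CPM). Among the libraries without FST, control replicate 1 was high for AC117239.2 (40.2 CPM, next 28.3 CPM) and control replicate 3 for mitochondrial transcripts (1.09%, next 0.855%).

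The FST difference of AC117239.2 depended on the background, with an interaction of 8.24 on the log2 scale (edgeR adjusted p = 0.000830). It was −0.20 over LIN28B and −8.45 over control, the latter an unshrunk estimate that rests on FST libraries near 0.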

How the results depend on the processing

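The counts of 32 higher and 54 lower genes stayed within 1.5 times under other size factors, library size alone and other filters on low counts (30 to 37 and 49 to 60) and with counts rescaled for transcript length (23 and 46). They were 152 and 128 at an adjusted p under 0.05, 226 and 188 with DESeq2, 219 and 175 with limma voom and library weights, and 59 and 77 with a mean for each condition. They were 13 and 33 with limma at a TPM pseudocount of 1, 13 and 34 at 0.1, 12 and 24 with Y-linked genes in the design, 5 and 15 with FST as the only term, 0 and 2 with FST and control libraries alone, and 35 and 45 with FST+LIN28B and LIN28B libraries alone. With the replicate block, whose numbers may or may not mark a shared litter, they were 7 and 19, with no interaction called. Without 1 library they were 6 to 103 and 19 to 88. The interaction was called for 30 genes with DESeq2, 7 with voom and 0 at the TPM pseudocount of 0.1, and for 0 to 1 without 1 library (0 without FST replicate 3). Same-sign shares were 97.6% and 90.4% for genes chosen at p under 0.001, and 75.5% to 92.4% and 77.1% to 87.4% without 1 library. The cause of these shifts was not tested. Of the uncalled named genes, 8 changed sign. Acvr1b was at −0.0165 with library size alone, −0.0017 rescaled for length, −0.00183 with the block, −0.0345 and −0.0368 on the TPM scales and −0.0471 with FST and control libraries alone, where Tgfb1 was at 0.0399, Tgfb3 at 0.0295 and Tgfbr2 at 0.0832. Bmp4 was at −0.16 with FST+LIN28B and LIN28B libraries alone and Id1 at −0.47, against 0.51 with FST and control libraries alone. Id1 was at −0.00753 with library size alone, −0.0694 with the block, −0.103 on both TPM scales and −0.105 with FST as the only term. Without 1 library the ranges were −0.0412 to 0.0529 for Acvr1b, −0.00955 to 0.146 for Acvr2b, −0.0147 to 0.268 for Bmp4, −0.171 to 0.194 for Id1, −0.0416 to 0.00376 for Smad2 and −0.0891 to 0.0137 for Tgfbr2. Depth limits genes below about 1 CPM.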

Other observations

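Lists not described above had few or no called genes. Over all genes tested, 5.64% were higher and 3.91% lower at an unadjusted p under 0.05. Of 25 tested targets of YAP and TEAD, which read out tension and cell density, none was called by edgeR, 8 were lower and 2 higher at an unadjusted p under 0.05, and the median was −0.14. Gadd45b was at −0.82, Ccn2 at −0.78 and Ccn1 at −0.62. The list median was −0.01 in FST against control alone and −0.27 in FST+LIN28B against LIN28B alone. Of 20 tested p53 targets, none was called, and 4 were lower and 0 higher at an unadjusted p under 0.05. Of the 20, 18 lay below 0 and the median was −0.21. It was −0.09 in FST against control alone and −0.35 in FST+LIN28B against LIN28B alone. Otic progenitor genes had a median of 0.11 over 24 tested, with 6 higher and 1 lower at an unadjusted p under 0.05. Tectorial membrane and inner ear gel genes had 0.26 over 10, with 3 higher and 2 lower, and integrins and laminins −0.09 over 37, with 3 higher and 7 lower. Endothelial markers summed to 49.2 to 114 CPM with FST and 20.4 to 44.1 CPM without it, with Tek at 25.9 to 95.6 CPM and 9.78 to 31.8 CPM, while the defining marker Cdh5 was at 0.0216 CPM or below in all 12 libraries, and none of the 3 tested was called. Tek, which encodes the angiopoietin receptor, had a log2 fold change of 1.34 (SE 0.35, edgeR adjusted p = 0.114).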
